A study of Homo sapiens with 4 samples.

Results

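The response of Siglec-5/THP-1 cells to nontypeable Haemophilus influenzae (NTHi) was read as the ratio of the signal in Siglec-5,NTHi[+] to that in Siglec-5,NTHi[-], gene by gene. Chemokines, cytokines, adhesion molecules and the inhibitors of NF-kB made up most of the genes that were several-fold higher with the bacteria. CXCL10, a chemokine for activated T cells, was 50.5-fold higher, and 23 genes were at least 3-fold higher against 1 that was at least 3-fold lower. Most other genes lay close to a ratio of 1. The comparison covered 7937 of the 19775 genes that the array names (40.1%), each by its brightest probe set over the 4 arrays. A gene entered when the higher of its signals on the Siglec-5/THP-1 arrays reached 105, the 75th percentile of all signals, and the other 11838 genes stayed below this floor.

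THP-1 is a human monoblastoid leukemia line, and Siglec-5/THP-1 is a subline of it that expresses Siglec-5, an inhibitory receptor for sialic acids. The study used it as the model of monocytes from SIGLEC14-null people, beside Siglec-14/THP-1, which expresses the paired activating receptor and stood for wild-type monocytes. Both lines were kept in serum-free macrophage medium for 6 h, either alone (NTHi[-]) or with heat-killed NTHi of strain 2019 at 100 bacteria per cell (NTHi[+]). Total RNA (250 ng) of each of the 4 cell samples was hybridized to 1 Affymetrix U133 Plus 2.0 array, which covers the human transcriptome with 3' probes. No condition was repeated, so no difference has a replicate error or a test, each ratio compares a pair of samples, and the number of arrays limits the precision. The sources used here do not state whether the subline is 1 clone or a pool of cells. The 4 arrays had similar medians (15.1 to 16.5) and 3'/5' signal ratios for GAPDH between 0.97 and 1.03. For Siglec-5/THP-1 the sums of all signals were 14047100 without and 13431505 with NTHi. For Siglec-14/THP-1 they were further apart, 12735500 without and 13977411 with NTHi.

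The labels were set against marker genes first. Of the 15 myeloid markers on the array, 9 were above the floor in Siglec-5/THP-1, among them PTPRC, the pan-leukocyte antigen CD45 (1707 without and 1770 with NTHi), and LYZ, lysozyme (3430 and 3180). CD14, the lipopolysaccharide co-receptor of blood monocytes, was below the median of all signals (16.02) on all 4 arrays, with 0.81 and 1.97 in Siglec-5/THP-1. MNDA, a nuclear protein of myeloid cells, was 0.67 times as high with NTHi (2249 and 1510). Markers of other cells were mostly below the floor: 1 of 9 for T or NK cells, 1 of 5 for B cells, 0 of 7 for epithelium, 1 of 8 for fibroblasts or endothelium and 0 of 4 for erythroid cells were above it. Their summed signals were 300.3 and 338 for the T or NK list and 145 and 99.2 for the epithelial list, without and with NTHi. SIGLEC5 itself was read by 1 probe set at 4.13 and 21.6 in Siglec-5/THP-1 and at 21.3 and 19.5 in Siglec-14/THP-1. The signal of 4.13 is below the median of all signals (16.02), and the others are slightly above it. Whether the probes lie in the introduced sequence is not given, so these signals do not check the label.

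NTHi is a Gram-negative bacterium whose lipooligosaccharide and lipoproteins are recognized by Toll-like receptors on myeloid cells. The receptors signal through MYD88, IRAK kinases and TRAF6 to the IKK complex, which releases NF-kB dimers from their IkB inhibitors, and NF-kB then binds kB sites upstream of chemokine, cytokine and adhesion genes. Among its targets are the inhibitors themselves, such as NFKBIA and TNFAIP3, which end the signal.

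The upstream sequences of some of the most responsive genes are shown, chosen because they carry the letters of such sites. Of the 23 genes at least 3-fold higher, 16 had a promoter in the RefSeq table (GRCh38.p14), with 18 start sites among them. Both strands of the 250 bases before each start were searched for the kB-type strings GGAANTTCC and GGGNNTTCC, where N is any base. In the lines below, the match is in capitals, each stretch is read 5' to 3' on the strand of the gene, and up to 40 bases are given on either side.
CXCL10 (chr4:76023571-76023713, minus strand): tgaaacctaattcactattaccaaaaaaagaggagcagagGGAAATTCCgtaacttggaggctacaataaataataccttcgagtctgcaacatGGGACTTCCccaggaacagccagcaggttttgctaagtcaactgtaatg
CXCL8 (chr4:73740438-73740526, plus strand): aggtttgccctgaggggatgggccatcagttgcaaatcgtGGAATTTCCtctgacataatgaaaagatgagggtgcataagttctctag
CCL20 (chr2:227813723-227813811, plus strand): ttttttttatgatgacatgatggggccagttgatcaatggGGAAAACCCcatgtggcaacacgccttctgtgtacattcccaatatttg
ICAM1 (chr19:10270894-10270982, plus strand): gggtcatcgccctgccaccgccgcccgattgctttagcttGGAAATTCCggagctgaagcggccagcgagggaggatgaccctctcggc
VCAM1 (chr1:100719640-100719728, plus strand): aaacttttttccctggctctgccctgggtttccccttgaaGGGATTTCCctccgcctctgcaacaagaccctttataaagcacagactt
TNFAIP3 (chr6:137867164-137867252, plus strand): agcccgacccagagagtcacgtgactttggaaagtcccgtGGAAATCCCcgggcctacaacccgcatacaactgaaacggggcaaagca
NFKBIA (chr14:35404782-35404870, minus strand): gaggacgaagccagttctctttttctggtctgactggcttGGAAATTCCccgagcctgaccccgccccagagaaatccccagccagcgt

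The first string was found for 5 of the 16 genes (CXCL10, CXCL8, ICAM1, NFKBIA and NFKBIZ) and the other for 7 (CCL20, CXCL10, EBI3, NFKBIZ, PTGER4, TNFAIP3 and VCAM1). Either was found for 10 of the 16 genes, and the rest carried neither. Either was present in 61.1% of the 18 promoters, in 7.92% of the promoters of all genes above the floor and in 6.54% of all 35116 promoters. The match began 91 bases before the start of CXCL8, 81 before NFKBIA and 62 before VCAM1. CXCL10 carries both strings, 176 and 122 bases before its start. In CCL20 and TNFAIP3 the match lies on the opposite strand, so the letters shown are its reverse complement. No matches of both strings overlapped in these genes. Of the other strings, the interferon-response type GAAANNGAA was in 22.2% of the 18 promoters against 6.88% of all promoters, the AP-1 type TGANTCA in 16.7% against 6.57% and the CRE TGACGTCA in 0% against 1.65%. Of the 15 genes between 2-fold and 3-fold higher, 10 had a promoter in the table, and CD83 and TMEM176B carried a kB-type string. Of the 8 genes at least 2-fold lower, 5 had one, and 0 carried any of the strings. A match describes the letters in this window and is not a measured binding site.

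The largest responses belonged to 23 genes at least 3-fold higher with NTHi, 0.29% of the genes above the floor. At least 3-fold lower was 1 gene (0.0126%). At 2-fold the counts were 38 higher (0.479%) and 8 lower (0.101%), and at 1.5-fold 97 higher (1.22%) and 94 lower (1.18%). The counts were uneven at 2-fold and more and nearly even at 1.5-fold. They were made without scaling the arrays to each other, which affects the balance. With the arrays scaled to the same median, the 2-fold counts were 47 higher and 4 lower. The median log2 ratio of all genes was -0.11, so the NTHi[+] array read slightly lower as a whole, and 7746 genes (97.6%) stayed within 1.5-fold. The SD of the log2 ratio was 0.39 in the 1984 genes with the weakest signals and 0.14 in the 1985 with the strongest, and all 8 genes at least 2-fold lower and 23 of the 38 higher were among those 1984. For the 3074 genes with several probe sets above the floor, the SD between the log2 ratios of probe sets of 1 gene was 0.18. Neither spread includes variation between cultures.

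**Figure D1:**
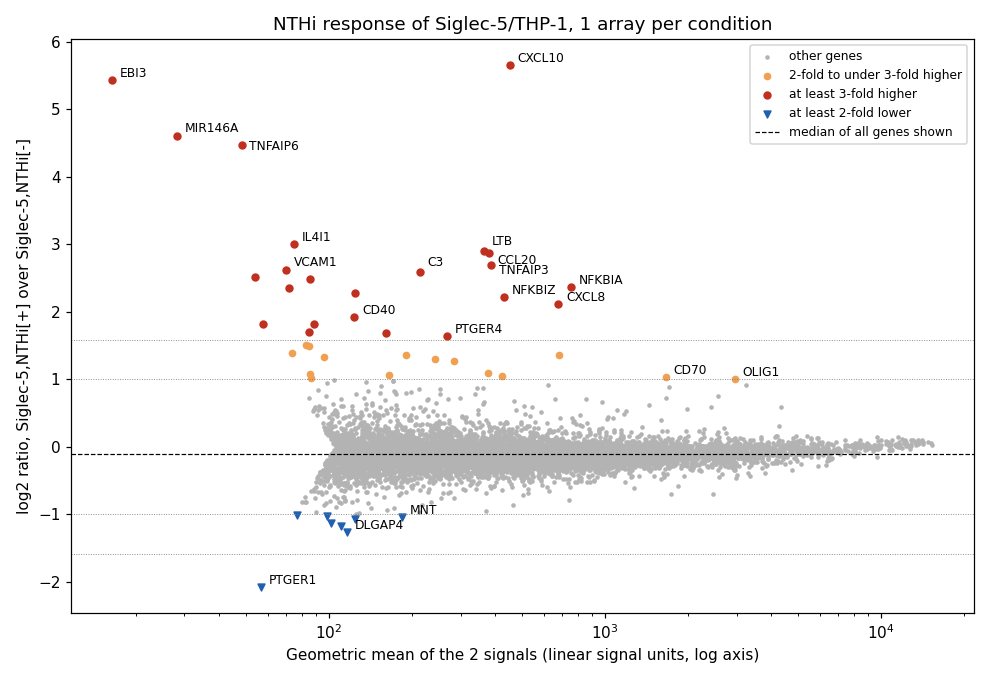
Each point is 1 of 7937 genes above the floor, with the geometric mean of its Siglec-5/THP-1 signals on the x axis (linear signal units, log axis) and the log2 ratio of Siglec-5,NTHi[+] over Siglec-5,NTHi[-] on the y axis; dotted lines mark 2-fold and 3-fold, and the dashed line marks the median of all genes (-0.11). The spread narrows toward strong signals, the genes at least 3-fold higher (red) occur from weak to moderately strong signals, and those at least 2-fold lower (blue triangles) sit among the weak ones; MIR146A, TNFAIP6 and EBI3 are drawn at their measured ratio, although their signal without NTHi is below the median of all signals.

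Chemokines, which recruit leukocytes, included several of the largest ratios. The median log2 ratio of those above the floor was 3.89 for 2 CXC and 2.50 for 4 CC chemokines, but CXCL10, CCL2 and CCL4 passed the floor only through the NTHi[+] array. With the floor at the median of all signals the medians were 1.36 over 6 and 2.49 over 5 genes. Of the 12 CXC chemokines on the array, CXCL10 and CXCL8 were above the floor, and both were at least 3-fold higher, beside 0.29% of all genes. CXCL10 read 63.8 in Siglec-5,NTHi[-] and 3220 in Siglec-5,NTHi[+], and 807 and 2035 in Siglec-14/THP-1. It was thus lowest in unstimulated Siglec-5/THP-1 and highest in the same line with NTHi. CXCL8, the neutrophil chemokine interleukin-8, read 325 and 1414 (4.35-fold), and its other probe set above the floor gave 4.91-fold. Of the 13 CC chemokines, 4 were above the floor and 3 were at least 3-fold higher, beside the same 0.29% of all genes. CCL20, the ligand of CCR6, read 142 and 1031 (7.28-fold). CCL2, the monocyte chemokine, read 22.6 and 129 (5.70-fold). CCL4, a chemokine for monocytes and lymphocytes, read 36.1 and 203 (5.62-fold). These 3 genes were below or near the floor without the bacteria and above it with them. CCL5, a chemokine for T cells, was already at 884 and read 1199 with NTHi, a ratio of 1.36.

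Of 23 cytokine genes on the array, 6 were above the floor, and 3 were at least 3-fold higher, beside 0.29% of all genes. Of these 3, EBI3 and IL1B passed the floor only through the NTHi[+] array. The median log2 ratio was 1.21 over the 6 above the floor. It was 0.60 over the 13 that reached the median of all signals, or 0.37 with signals raised to it. LTB, a membrane-bound lymphotoxin subunit, read 134 and 997 (7.44-fold). EBI3, the shared subunit of interleukin-27 and interleukin-35, read 2.50 and 108, and since the first value is below the median of all signals its change is given as at least 6.74-fold. IL1B read 47.0 and 153 (3.26-fold), and its other probe set, just below the floor, read 46.8 and 100 (2.14-fold). All 3 thus had signals near or below the floor without NTHi. TNF, IL6 and CXCL3 did not reach the floor. TNF read 3.54 and 25.9 (at least 1.62-fold), CXCL3 read 13.1 and 21.6 (at least 1.35-fold), and IL6 was below the median of all signals at 3.73 and 6.97, so that no fold is given. CXCL2 read 17.9 and 38.6 (2.16-fold), also below the floor.

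Receptors and surface molecules of immune cell contact formed a second group. VCAM1, the ligand of integrin alpha-4 beta-1, read 28.2 and 174 (6.18-fold), and ICAM1, the ligand of LFA-1, read 31.7 and 161 (5.09-fold, 5.24-fold in its other probe set). They were the 2 of 15 adhesion genes above the floor that reached 2-fold, beside 0.479% of all genes at least 2-fold higher. Both passed the floor only through the NTHi[+] array, and the median of that list was -0.05. CD40, the receptor of CD40 ligand, read 63.6 and 241 (3.79-fold), and its 2 further probe sets above the floor gave 4.50-fold and 7.14-fold. It was the only 1 of 6 TNF receptor genes above the floor to reach 1.5-fold, beside 1.22% of all genes at least 1.5-fold higher. CD40 also passed the floor only through the NTHi[+] array. Among 5 TNF superfamily ligands above the floor, CD70, the ligand of CD27, was 2.06-fold higher (1160 and 2386) and TNFSF9, the ligand of 4-1BB, was 1.63-fold higher (518 and 845). CD83, a surface marker of maturing dendritic cells, read 258 and 551 (2.13-fold). It was the only gene of antigen presentation or costimulation, of 8 above the floor, at 1.5-fold or more, beside 1.22% of all genes. PTGER4, the prostaglandin E2 receptor EP4, read 151 and 473 (3.12-fold) and C3AR1, the receptor of complement fragment C3a, read 425 and 1091 (2.57-fold). PTGER4 lay just inside the 3-fold threshold and PELI1 (2.85-fold) just outside it. GPR84, a receptor of medium-chain fatty acids, read 183 and 443 (2.42-fold).

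The NF-kB subunits and IkB proteins stood out among the signalling genes. Of 8 genes above the floor, 3 were at least 3-fold, 4 at least 2-fold and 6 at least 1.5-fold higher. Of all genes, 0.29%, 0.479% and 1.22% were. RELB and NFKBIB passed the floor only through the NTHi[+] array. The median log2 ratio was 1.05, also over the 10 genes of the list that reached the median of all signals. NFKBIA, the inhibitor IkB-alpha, read 333 and 1716 (5.16-fold). NFKBIZ, the nuclear protein IkB-zeta, read 199 and 933 (4.68-fold, 4.72-fold in its other probe set above the floor). RELB, a subunit of the noncanonical pathway, read 47.0 and 165 (3.52-fold). NFKBIE, IkB-epsilon, was 2.57-fold higher (119 and 305). Other genes of the list above the floor differed less. REL was 1.66-fold higher, NFKB1 read 444 and 669, NFKBIB was 1.34-fold higher, and RELA, the p65 subunit, read 299 and 280 (0.94). NFKBIA, NFKBIZ and RELB were thus several-fold higher, while NFKBIB and RELA stayed below 1.5-fold. Below the floor, NFKB2 read 9.98 and 44.0 (at least 2.75-fold) and NFKBID, a further IkB protein, read 44.5 and 38.8 (0.87).

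Among 11 brakes on NF-kB signalling above the floor, 2 were at least 3-fold and 3 at least 2-fold higher, and the list median was 0.08. Of all genes, 0.29% and 0.479% were as high. TNFAIP3, the ubiquitin-editing enzyme A20, read 153 and 985 (6.45-fold, 6.00-fold in its other probe set). TNIP1, which binds A20, read 294 and 612 (2.08-fold), and CYLD, a deubiquitinase, read 114 and 180 (1.58-fold). MIR146A, the gene of a microRNA that targets TRAF6 and IRAK1, read 5.74 and 139, at least 8.69-fold higher. It passed the floor only through the NTHi[+] array. Its other probe set was below the median of all signals on both arrays (6.88 and 2.07). The array measures a longer transcript assigned to this gene and not the mature microRNA. The mature sequences that the gene encodes are given with the seed, bases 2 to 8, in capitals (RefSeq, GRCh38.p14).
hsa-miR-146a-5p (chr5:160485372-160485393, plus strand): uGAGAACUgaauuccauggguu
hsa-miR-146a-3p (chr5:160485408-160485429, plus strand): cCUCUGAAauucaguucuucag

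The receptors and adaptors upstream of NF-kB were mixed. Of 15 genes of the Toll-like receptor pathway above the floor, 4 were at least 1.5-fold and 2 at least 2-fold higher. Of all genes, 1.22% and 0.479% were. Of these 4, TRAF6, NOD2 and MAP3K8 passed the floor only through the NTHi[+] array, which favours a high ratio. The list median was -0.04, also over the 25 genes that reached the median of all signals. TLR2, the receptor of bacterial lipoproteins, read 146 and 215 (1.47-fold), and TLR4, the lipopolysaccharide receptor, was below the floor at 41.9 and 40.1. MYD88 (0.97) and IRAK1 (0.93) were near 1. NOD2, a sensor of peptidoglycan fragments, read 58.8 and 124 (2.12-fold), TRAF3, an adaptor, read 254 and 467 (1.84-fold), and the kinase MAP3K8 was 1.64-fold higher (86.2 and 142). TRAF6 read 45.5 and 119 (2.62-fold), but its other probe set, below the floor, read 50.5 and 49.5 (0.98). Its brightest probe set read 122 and 126 in Siglec-14/THP-1, so the low value was that of 1 array. PELI1, a ubiquitin ligase of this pathway, read 49.2 and 140.

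Secreted effectors and survival genes also took part. TNFAIP6, a hyaluronan-binding protein, read 10.3 and 228 (at least 14.2-fold, and at least 11.9-fold in its other probe set). C3, complement component 3, read 86.9 and 523 (6.02-fold), and IL4I1, a secreted amino acid oxidase, read 26.5 and 212 (8.01-fold). In the list of 18 inflammatory effectors above the floor, TNFAIP6 and TNFAIP2 passed it only through the NTHi[+] array. The median log2 ratio was 0.28, and 6 genes were at least 1.5-fold higher, beside 1.22% of all genes. After TNFAIP6 these were PTX3, a soluble pattern recognition protein (452 and 854, 1.89-fold), TNFAIP2 (1.80-fold), SDC4, a heparan sulfate proteoglycan (1.78-fold), F3, tissue factor (1.64-fold), and NAMPT (1.58-fold). CCR7, a chemokine receptor, read 208 and 148 (0.71). Of 12 survival genes above the floor, IER3, an early NF-kB target, read 30.8 and 108 (3.52-fold). The kinase PIM2 read 114 and 240 (2.10-fold) and SOD2, mitochondrial superoxide dismutase, read 98.6 and 150 (1.52-fold). IER3 and SOD2 passed the floor only through the NTHi[+] array.

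Some genes outside these lists were as high. MAML2, a Notch coactivator, read 56.6 and 275 (4.86-fold). RGS16, a regulator of G-protein signalling, read 89.6 and 290 (3.23-fold). AMPD3, an AMP deaminase, read 50.6 and 142 (2.81-fold). RGS16, AMPD3, C3AR1, GPR84 and the genes in the next sentence were named after their values were seen. TRIM36 was 2.52-fold, the noncoding RNA gene LINC00926 2.47-fold, TMEM176B 2.03-fold and the transcription factor gene OLIG1 2.00-fold higher. In all, 25 of the 38 genes at least 2-fold higher, and 368 of all 7937, belonged to the 26 gene lists, which were chosen with earlier results of these data known.

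**Figure D2:**
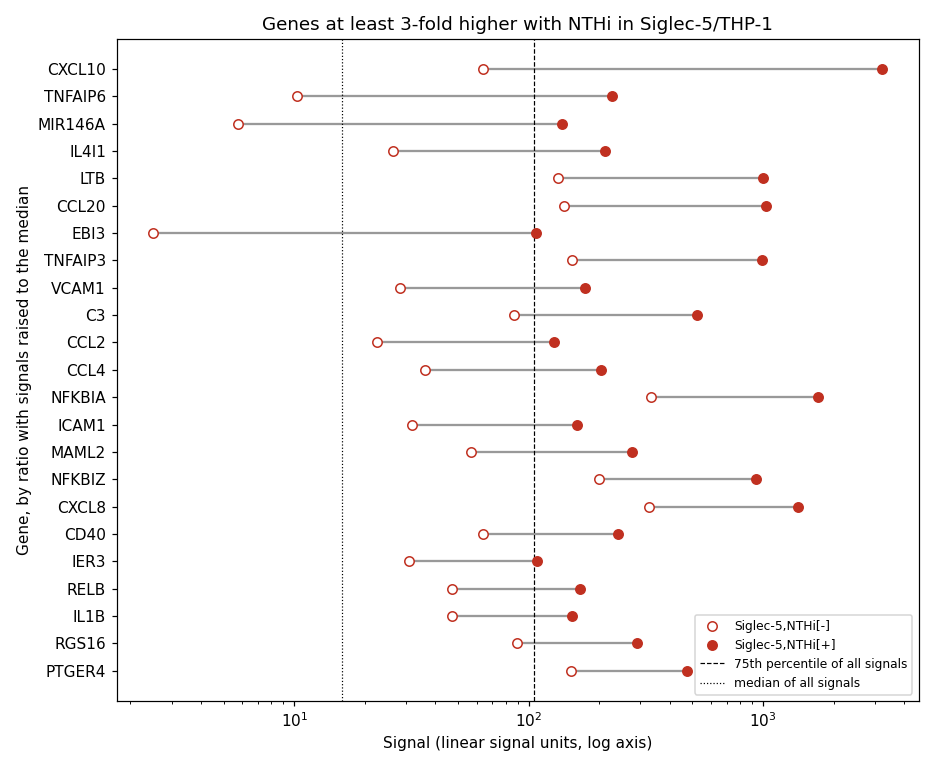
The 23 genes at least 3-fold higher are shown with 1 line each, the open circle being the signal in Siglec-5,NTHi[-] and the filled circle that in Siglec-5,NTHi[+] (linear signal units, log axis, 1 array per condition); the dashed line is the floor of 105 and the dotted line the median of all signals, 16.02. In 16 of the 23 the signal without NTHi is below the floor, and in MIR146A, TNFAIP6 and EBI3 it is below the median of all signals.

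The other gene lists were set beside the median of all genes above the floor, -0.11. Of the 26 list medians, 13, all within 0.19 of 0, had the opposite sign under at least 1 other scaling, floor or choice of probe sets. Metallothioneins, which bind zinc and copper, were all slightly higher. Of 6 genes above the floor, 5 were at least 1.5-fold and 0 at least 2-fold higher, beside 1.22% and 0.479% of all genes. The median log2 ratio was 0.69, which is 0.80 above that of all genes. MT2A read 2366 and 4478 (1.89-fold) and MT1X read 1979 and 3327 (1.68-fold), while MT1E was lowest at 1.48-fold. These genes are near-identical copies whose probes can share targets, so they are not 6 separate measurements. TFRC, the transferrin receptor, read 1256 and 2326 (1.85-fold) and SLC40A1, the iron exporter ferroportin, read 143 and 90.4 (0.63). They were the only 2 of 15 NRF2 and iron genes above the floor beyond 1.5-fold. Of all genes, 1.22% were at least 1.5-fold higher and 1.18% at least 1.5-fold lower.

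Interferon-stimulated genes above the floor were near the median. CXCL10 is also induced by interferon, and whether interferon took part in its change was not tested. Of 13 above the floor, 1 was at least 1.5-fold higher, beside 1.22% of all genes. This was IFIH1, a sensor of double-stranded RNA (104 and 185, 1.78-fold), which passed the floor only through the NTHi[+] array. The list median was -0.11, the same as that of all genes. Another 25 genes of the list were below the floor. Over the 32 that reached the median of all signals, the list median was -0.01. ISG15 was at 0.92, and IFIT3 read 230.5 and 160.3 (0.70). Early response transcription factors, at this 6 h time point, held 0 of 13 genes at 1.5-fold or more, between BATF3 (0.78) and BATF (1.31). MAP kinase and cytokine feedback genes also held 0 of 13, with ZFP36, which destabilizes cytokine mRNA, highest at 1.37. Both lists thus lay within the range where most genes lay.

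The remaining gene lists stayed near the median of all genes. None of 20 glycolysis and hypoxia genes, 16 cholesterol genes, 26 heat shock and unfolded protein genes, 28 respiratory chain genes, 28 ribosomal protein genes, 20 lysosomal genes and 18 myeloid transcription factor and granule genes above the floor reached 1.5-fold in either direction. Ribosomal proteins spanned ratios of 0.91 to 1.11. Of 39 cell cycle and replication genes, 2 were at least 1.5-fold lower, beside 1.18% of all genes. These were the licensing factors CDT1 (471 and 292, 0.62) and MCM5 (788 and 502, 0.64), and the list median was -0.11. Siglec signalling partners, including the kinase SYK and the phosphatases PTPN6 and PTPN11, lay between 0.89 and 0.95.

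**Figure D3:**
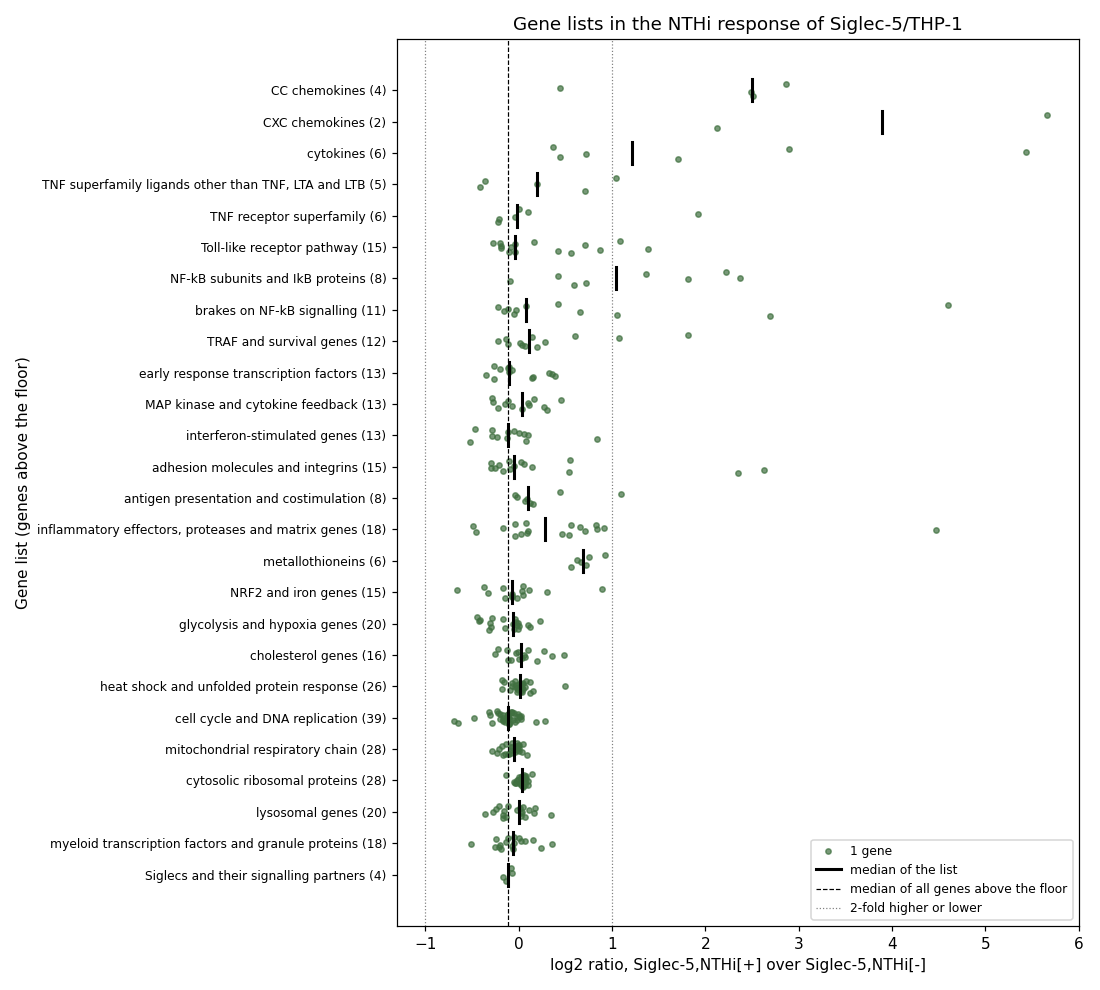
Each green point is 1 gene above the floor, placed by its log2 ratio of Siglec-5,NTHi[+] over Siglec-5,NTHi[-], in rows by gene list with the number of genes in parentheses; black bars are list medians, the dashed line is the median of all genes (-0.11), and dotted lines mark 2-fold higher and lower. Of the 25 genes at least 2-fold higher, 3 are CC chemokines, 2 CXC chemokines, 3 cytokines and 4 NF-kB or IkB genes. The others are spread over further lists. Several of the 25 passed the floor only through the NTHi[+] array. Metallothioneins are grouped at 0.69, and the lists from glycolysis to Siglecs are centred near the dashed line.

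The genes at least 2-fold lower with NTHi were few and had weak signals. PTGER1, the prostaglandin E2 receptor EP1, read 116 and 27.6, 4.21-fold lower, and 45.9 and 15.3 in Siglec-14/THP-1. It was the single gene at least 3-fold lower, and DLGAP4 (180 and 75.3, 2.39-fold lower) lay just outside that threshold. For the 8 genes at least 2-fold lower, the brighter array read from 109 (RHPN2) to 264 (MNT), beside the floor of 105. CILK1, a kinase of the cilium, read 165 and 73.7 (2.25-fold lower), ATXN2, an RNA-binding protein, read 150 and 68.6 (2.19-fold lower), and MNT, a repressor that pairs with MAX, read 264 and 128 (2.05-fold lower). AP3M2, RUSF1 and RHPN2 were 2.09-fold, 2.03-fold and 2.00-fold lower. In 7 of the 8 the signal with NTHi was below the floor. The other 5 probe sets of DLGAP4, all below the floor, did not show it: 2 were below the median of all signals and the other 3 gave ratios from 0.79 to 1.28. The probe sets used for DLGAP4 and PTGER1 are of the x_at type, whose probes can match several transcripts. Of the other probe sets of PTGER1, both below the floor, 1 read 23.0 and 3.07 and the other was below the median of all signals on both arrays (6.84 and 5.64). ZNF605 (178 and 89.1) and ANKRD12 (180.5 and 91.2) lay just short of 2-fold, and other probe sets of ANKRD12 were slightly higher with NTHi. With the arrays scaled to the same median, to the same trimmed mean or to the same quantiles, 4, 4 and 3 of the 8 remained at least 2-fold lower, while all 23 and all 38 higher genes remained. Those scalings moved the median log2 ratio of all genes from -0.11 to between -0.01 and 0.00.

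The floor itself passed genes on their higher signal, so a gene present only with NTHi entered and small signals did not. FPGS, with 105 on its higher array, was just inside, and STRIP2 was just outside. Among 205 list genes below the floor, 128 reached the median of all signals, and 9 of these were at least 2-fold higher and 1 lower with signals raised to that median, beside 76 higher (1.5%) and 107 lower of all 5077 such genes. The 9 included CXCL1, a neutrophil chemokine, which read 33.9 and 104 (3.07-fold) and missed the floor narrowly. They also included BCL2A1, an antiapoptotic gene (30.5 and 95.5, 3.14-fold), the glucose transporter gene SLC2A6 (16.9 and 68.2, 4.03-fold), the phosphodiesterase gene PDE4B (22.2 and 83.5, 3.75-fold) and TNFRSF9, the receptor 4-1BB (17.8 and 66.6, 3.75-fold). CD86, a costimulatory ligand, was the lower one (37.6 and 17.7, 0.47).

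The same genes were then read in Siglec-14/THP-1, over the same 7937 genes. All 23 genes at least 3-fold higher in Siglec-5/THP-1 were at least 1.5-fold higher in Siglec-14/THP-1, and 17 were at least 2-fold higher, while of all genes 1.9% and 0.454% were. Their median ratio was 5.62 in Siglec-5/THP-1 and 2.52 in Siglec-14/THP-1. With signals raised to the median of all signals, 20 of the 23 had the larger ratio in Siglec-5/THP-1, and NFKBIZ and IL1B had the larger one in Siglec-14/THP-1. For MIR146A the lines cannot be ordered, since its Siglec-5/THP-1 ratio is a lower bound (at least 8.69, beside 10.7). These 23 were chosen by their ratio in Siglec-5/THP-1, which favours that line. Of the 12 genes chosen by a 3-fold higher signal in Siglec-14/THP-1 (0.151%), 6 had the larger ratio in Siglec-5/THP-1, with MIR146A not counted among the 6. These 12 also had to reach the floor on a Siglec-5/THP-1 array, so this choice does not treat the lines alike. It left out CXCL2, for example, which was 4.98-fold higher in Siglec-14/THP-1 and 2.16-fold in Siglec-5/THP-1. No test of a difference between the lines was possible with 1 array per condition. Across all 7937 genes the log2 ratios of the lines had a Pearson r of 0.53 and a Spearman rho of 0.36, as a description over genes that share an array design and are not independent.

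Ratios and levels ordered the lines differently. Without NTHi, 22 of the 23 genes had the lower signal in Siglec-5/THP-1, NFKBIZ being the exception, and the median ratio of Siglec-14,NTHi[-] to Siglec-5,NTHi[-] was 4.59. The choice of the 23 favours a low signal on that array, since it is the denominator of their ratio, and 16 of them were below the floor there. Of the 12 genes at least 3-fold higher in Siglec-14/THP-1, 9 of which are among the 23, 10 had the lower signal in Siglec-5,NTHi[-], with a median ratio of 3.68. With NTHi the median ratio of the lines was 1.98, and CXCL10 and NFKBIZ were the 2 genes that were higher in Siglec-5,NTHi[+] than in Siglec-14,NTHi[+]. Over all 7937 genes these medians were 0.886 and 1.02. The increase in signal units was larger in Siglec-14/THP-1 for 18 of the 23 and for 6945 of all 7937. In 13 of the 23, and in 4847 of all 7937, the signal of Siglec-5,NTHi[+] was above that of Siglec-14,NTHi[-]. Neither count sets the 23 genes apart from the rest. For LTB it was barely above, with 997 in Siglec-5,NTHi[+] beside 971 in Siglec-14,NTHi[-] and 1894 in Siglec-14,NTHi[+]. CCL4 stayed far below, at 203 in Siglec-5,NTHi[+] beside 4355 and 6775. C3 read 523 beside 1090 and 1823, IER3 read 108 beside 861 and 2029, and IL4I1 read 212 beside 346 and 742. For these 4 genes even the stimulated Siglec-5/THP-1 cells had less signal than the unstimulated Siglec-14/THP-1 cells. VCAM1 (174 beside 110 and 257) and MAML2 (275 beside 234 and 433) passed the unstimulated level.

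The genes with smaller changes overlapped less clearly. Of the 15 genes between 2-fold and 3-fold higher, all 15 were higher in Siglec-14/THP-1 as well and 13 were at least 1.5-fold higher, TRAF6 (1.03) and CD70 (1.46) being the exceptions. Of the 59 between 1.5-fold and 2-fold higher, 54 were higher and 30 at least 1.5-fold higher (50.9%). Of all genes 71.5% were higher in Siglec-14/THP-1, whose median log2 ratio was 0.09. Of the 8 at least 2-fold lower in Siglec-5/THP-1, 6 were lower in Siglec-14/THP-1, 3 were at least 1.5-fold lower (PTGER1, CILK1 and MNT) and 1, PTGER1, was at least 2-fold lower, beside 0.353% and 0.0252% of all genes. Of the 86 between 1.5-fold and 2-fold lower, 8 were at least 1.5-fold lower in Siglec-14/THP-1. With signals raised to the median of all signals, 0 genes moved at least 1.5-fold in opposite directions in both lines.

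**Figure D4:**
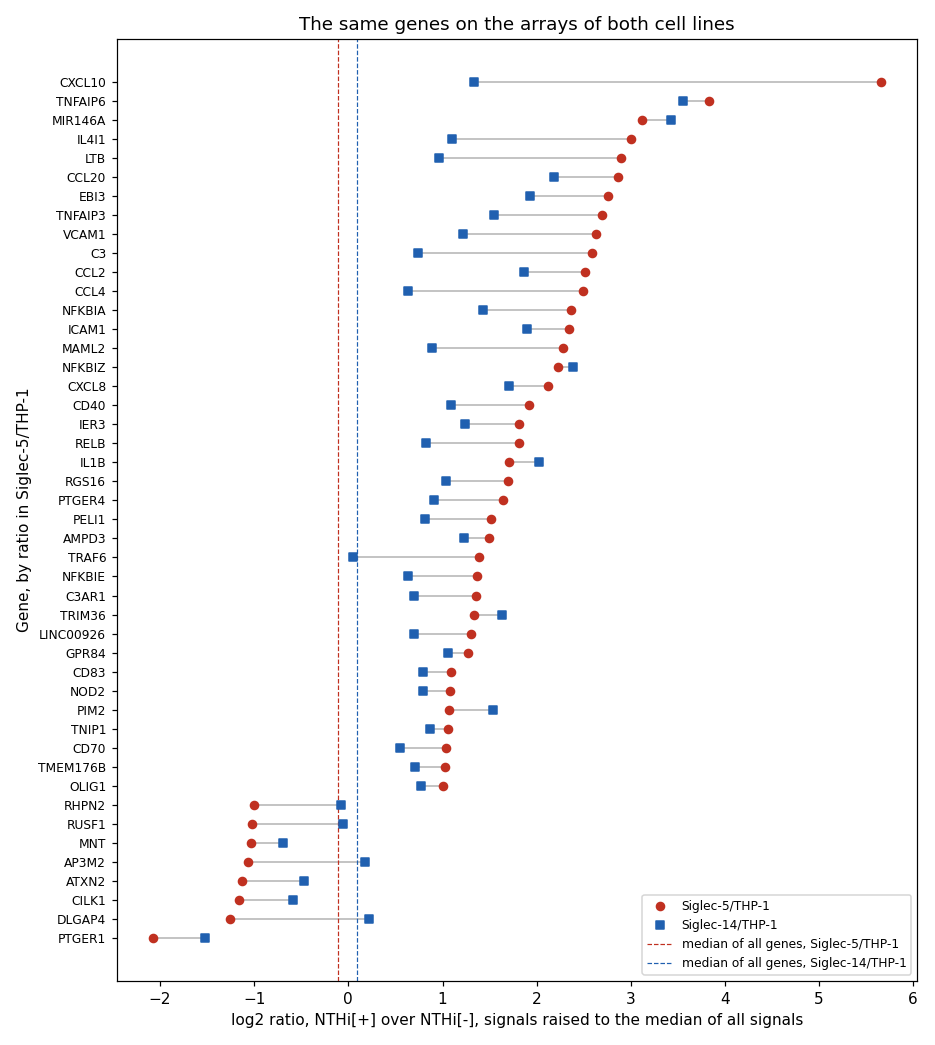
Each row is 1 of the 38 genes at least 2-fold higher or the 8 at least 2-fold lower in Siglec-5/THP-1, with the log2 ratio of NTHi[+] over NTHi[-] in Siglec-5/THP-1 (red circles) and Siglec-14/THP-1 (blue squares), signals below 16.02 being raised to it; dashed lines are the medians of all genes (-0.11 and 0.09). All 38 higher genes are above 0 in both lines, the ratio is mostly larger in Siglec-5/THP-1, by which the genes were chosen, and the lower genes have blue squares on both sides of 0.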

How the data were processed

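The 4 samples were grouped by their titles, 1 array per condition. The authors quantified the GeneChip Human Genome U133 Plus 2.0 arrays with GeneChip Operating Software (GCOS; version not given in the sources used here), and their methods state a standardization on the cumulative signal of all probes. The deposited values are linear signal intensities of 54675 probe sets, 62 of them controls, and were used as deposited. Their sums differ between the arrays, so whether they carry that standardization is not given. Ratios below about 1.1-fold can therefore reflect scaling.

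Probe sets were named with the platform annotation: 41091 are listed for 1 gene, 1801 for several and 11721 for none, and only the first were used. Of the 632 genes in the lists, 573 matched this annotation, and some genes are not reported here. The brightest probe set by mean signal over the 4 arrays stood for a gene, and a gene was kept when its higher Siglec-5/THP-1 signal was at or above the 75th percentile. A fold whose lower signal was under the median of all signals was set against that median and written as "at least". No test was made, since each condition has 1 array. The alternatives were scaling to the median, to a mean that leaves out the highest and lowest 2%, or by quantiles, a pseudocount, raised signals, the mean over probe sets, other floors and other thresholds. Motifs were searched in RefSeq promoters.

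Genes were named by a rule: the 20 largest and 10 smallest ratios, list members at least 2-fold different, 19 genes always named (TNF, IL6, CD14, SIGLEC5 and others), the genes beside each threshold, genes that moved oppositely in the lines and genes whose probe sets disagreed in direction. The remaining genes at least 2-fold different, list members given as examples and genes below the floor were named after their values were seen. The gene lists, the members and the rule were chosen with earlier results of these data known. Python 3.11.15 with numpy 2.4.6, pandas 2.3.3 and matplotlib 3.10.9 was used, and the ratio code was tested on simulated data.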

Additional observations from a re-analysis of the deposited data

Results flagged for a closer look

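Probe sets without a gene name were outside the comparison. Of 825 probe sets above the floor that are listed for no gene, 1 was at least 3-fold higher in Siglec-5,NTHi[+] and 0 were at least 3-fold lower. It drew attention as a signal outside the named genes and is not described further.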

How the results depend on the processing

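The floor decided the counts most. With the floor at the median of all signals, 243 genes were at least 3-fold higher and 271 lower, and 415 at least 2-fold higher and 528 lower, of 13014 genes. With signals also raised to that median, an alternative chosen after seeing the data, the counts were 34 and 5 at 3-fold and 114 and 115 at 2-fold. With the floor at the 90th percentile, 8 were at least 3-fold higher and 0 lower, and 13 at least 2-fold higher and 0 lower, of 3717 genes. The genes at least 2-fold lower, 8 in the comparison as made, numbered 4 with arrays scaled to the same median, 4 with the trimmed mean, 3 with quantile normalization and 3 with the pseudocount. A threshold of 1.5-fold in place of 2-fold gave 97 higher and 94 lower. The genes at least 3-fold higher stayed between 17 and 26 under the scalings, the pseudocount (18, without IER3, RELB, IL1B, RGS16 and PTGER4), raised signals, the mean over probe sets (22, without RGS16) and the 4-fold threshold (17). Of the ratios of named genes and the list medians under these alternatives, 240 and 224 moved by less than 1.5-fold, and 8 and 10 by more. The sign of 0 gene ratios differed under any alternative, but that of 13 list medians, all within 0.19 of 0 in the comparison as made, did under at least 1. The median log2 ratio of the CXC chemokines was 2.20 to 2.23 in place of 3.89 under the scalings, which brought CXCL1 above the floor as well, and that of the CC chemokines was 1.65 over 2 genes at the 90th percentile. No paired analysis was possible because each condition has 1 array, and no replicate could be left out. Signal over background limits the genes below the floor, whose ratios rest on weak signals.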
